A study of Sus scrofa with 20 samples.

Results

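Lipoprotein receptors and genes of cholesterol efflux, absorption and storage were described in backfat and liver of the Nanchukmacdon pig. The set held 7 listed symbols, VLDLR, LRP1, SCARB1, ABCA1, ABCG1, NPC1L1 and SOAT1. Symbols were matched to pig Ensembl gene identifiers, and 6 of the 7 had one among the 31907 genes of the count table. LRP1, a large endocytic lipoprotein receptor, had no identifier in the name table and no value is given for it. All of the 6 matched genes had enough counts to be tested, among 16275 genes. Of these 6, VLDLR and SCARB1 were higher in backfat and NPC1L1 was higher in liver, whereas ABCA1, ABCG1 and SOAT1 did not pass the test.

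Cells take up cholesterol inside lipoproteins through endocytic receptors and through scavenger receptors, and they can return it to HDL through transporters of the ABC family. Adipose tissue is known as a large store of free cholesterol around and within its lipid droplets. The liver clears lipoproteins from blood, makes nascent HDL and sends sterols into bile. Inside cells, surplus cholesterol is esterified for storage, and the esters are hydrolysed again when cholesterol is needed.

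The study compared backfat with liver of 5 boars to relate CpG methylation to tissue expression, with bulk tissue as the material. RNA-seq gave 5 backfat and 5 liver libraries, and 10 WGBS libraries of the same tissues were not used here. The sample labels give the genotype WT, an age of 22 months and a normal disease state for every sample, and no treatment is given for either group. The methods of the study give another average age for the boars. Each library is named by its tissue and by the boar number in its column name, and the same boars gave both tissues. Bulk RNA holds all cell types of a tissue, so fewer cells of a type and less RNA per cell cannot be told apart in any value below.

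Backfat libraries had 45157114 to 61772737 counts and liver libraries 43820042 to 53768601. Levels of single genes are in CPM, the counts of a gene as a rate per library after scaling by TMM factors, and sums over marker genes are in CPM without those factors. The 8 adipocyte markers summed to between 15225 and 21480 CPM in backfat and to at most 51.0 in liver, and the 10 hepatocyte markers summed to between 16652 and 76929 CPM in liver and to at most 143 in backfat, so the tissue labels held for every library. Liver 67 stood apart: 44.5% of its counts came from mitochondrial genes, against 6.38% to 20.2% in the other 9 libraries, and it had the lowest hepatocyte sum. It also had the highest red cell sum of any library, 1325 CPM over 5 genes, and 123 CPM over 4 skeletal muscle genes where the other livers had at most 1.35. Backfat 69 had the highest hepatocyte sum in backfat, 143 CPM against 16.5 to 20.2 in the other 4. Values without liver 67 alone are given below for VLDLR and SCARB1 only among the 6 genes. Values without both libraries together are given for all 6 genes in the last section.

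Sequence in front of the genes is shown for 2 genes of the set and for a pair that splits one enzyme activity, because these 4 genes cover both directions and the absence of a call, and because CpG methylation was the other assay of the study. Each run holds the 250 bases before the start of the RefSeq gene model on Sscrofa11.1, read 5′ to 3′ on the strand of the gene, with every CG dinucleotide in capitals. VLDLR (chr1:219210333-219210582, minus strand) was higher in backfat. NPC1L1 (chr18:50726604-50726853, plus strand) was higher in liver. SOAT1 (chr9:121044961-121045210, plus strand) did not pass the test, and SOAT2 (chr5:18358691-18358940, plus strand), its counterpart outside the set, was higher in liver.
VLDLR: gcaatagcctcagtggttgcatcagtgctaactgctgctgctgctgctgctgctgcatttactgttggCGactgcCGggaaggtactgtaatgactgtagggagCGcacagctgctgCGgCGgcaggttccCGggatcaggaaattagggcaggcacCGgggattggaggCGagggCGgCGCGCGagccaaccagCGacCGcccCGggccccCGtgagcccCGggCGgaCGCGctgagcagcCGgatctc
NPC1L1: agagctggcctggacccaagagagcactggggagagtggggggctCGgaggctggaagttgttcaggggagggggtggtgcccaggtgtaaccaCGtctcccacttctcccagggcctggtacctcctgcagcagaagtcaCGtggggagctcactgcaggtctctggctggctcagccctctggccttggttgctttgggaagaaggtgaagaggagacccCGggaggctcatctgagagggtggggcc
SOAT1: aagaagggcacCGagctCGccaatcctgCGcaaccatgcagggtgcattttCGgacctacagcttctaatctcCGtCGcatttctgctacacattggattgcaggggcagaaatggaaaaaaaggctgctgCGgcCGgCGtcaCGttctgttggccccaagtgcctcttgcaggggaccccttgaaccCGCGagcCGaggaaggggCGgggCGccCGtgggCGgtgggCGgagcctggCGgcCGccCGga
SOAT2: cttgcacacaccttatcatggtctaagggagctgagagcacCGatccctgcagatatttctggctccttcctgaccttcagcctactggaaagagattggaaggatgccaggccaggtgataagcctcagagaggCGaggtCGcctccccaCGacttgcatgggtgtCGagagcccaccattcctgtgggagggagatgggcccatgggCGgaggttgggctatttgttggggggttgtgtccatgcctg

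CG dinucleotides numbered 21 in the VLDLR window and 21 in that of SOAT1, whereas the NPC1L1 window held 4 and the SOAT2 window held 6. The same window held 29 for SCARB1, 18 for ABCA1 and 32 for ABCG1. The median over all 19556 RefSeq promoters of the same length was 12, so NPC1L1 was the only gene of the set below it. Motifs were searched on both strands. The GC box GGGCGG, a binding sequence of Sp1 family factors, was in the windows of VLDLR, SCARB1, ABCA1, ABCG1 and SOAT1 and not in that of NPC1L1, and 45.9% of all promoters held it. The E-box CACGTG was found in NPC1L1, between 111 and 106 bases before the start, and in ABCA1, between 71 and 66 bases before it, against 6.39% of all promoters. The TATA box TATAAA was in none of the 6 windows, against 9.77% of all promoters. CCAAT was in VLDLR, ABCG1 and SOAT1, against 31.9% of all promoters. Methylation at these positions was not analysed here.

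Expression was compared with edgeR's quasi-likelihood test on the deposited counts, and a log2 fold change is backfat over liver. It is given with a standard error (SE) derived from the test, its absolute value over the square root of the F statistic. The false discovery rate (FDR) is the Benjamini-Hochberg adjusted p over all genes tested. A gene passed when its FDR did not exceed 0.05, and it is called a DEG here if its log2 fold change also reached 2 or -2. By FDR alone 3 of the 6 genes passed, against 55.0% of all genes tested. Of these, 2 were higher in backfat and 1 was higher in liver, against 28.0% and 27.0% of all genes. When only library size was used for scaling, these shares of all genes were 50.5% and 14.3%, and 3 of the 6 were higher in backfat and 1 in liver. At both thresholds 2 of 6 were DEGs, against 22.3% of all genes, with 1 in each direction against 11.1% for backfat and 11.2% for liver. The median of the absolute log2 fold change was 0.64 over the 6 genes and 0.81 over all genes.

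**Figure D1:**
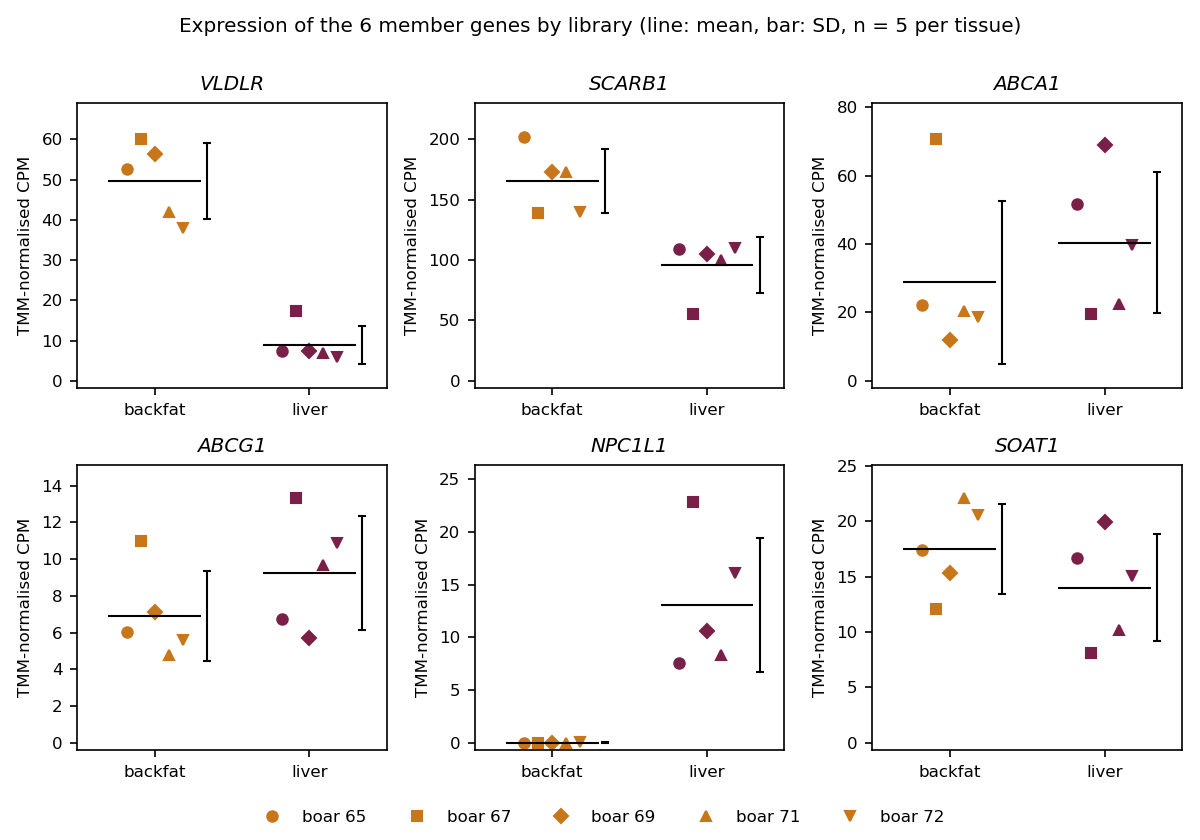
Expression of the 6 genes in TMM-normalised CPM (y axis, linear) in each backfat and liver library (x axis), with a symbol for each boar, a line at the mean and a bar for the SD over 5 libraries. VLDLR, SCARB1 and NPC1L1 show no overlap between the tissues, while the ranges of ABCA1, ABCG1 and SOAT1 overlap.

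VLDLR (ENSSSCG00000005229) encodes the very low density lipoprotein receptor, which binds triglyceride-rich particles that carry apolipoprotein E and aids their delivery at the vessel wall of fat and muscle. The gene lies on chromosome 1, between 219178501 and 219210332 on the minus strand of Sscrofa11.1, with 17 to 20 exons in its RefSeq transcripts. In backfat it was at 52.5, 60.0, 56.4, 42.0 and 37.9 CPM in boars 65, 67, 69, 71 and 72, from 2212 to 4657 counts per library. In liver the same boars gave 7.31, 17.3, 7.37, 6.82 and 5.89 CPM, from 216 to 642 counts. The lowest backfat library was above the highest liver library, and within liver the library of boar 67 was above the other 4. The mean was 49.8 ± 9.44 CPM in backfat and 8.94 ± 4.73 in liver (SD, n = 5), a log2 fold change of 2.48 (SE 0.30, FDR 1.72e-05), with backfat higher in 5 of 5 boars. VLDLR was thus the only gene of the set called a DEG in backfat.

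Without liver 67 the log2 fold change of VLDLR was 2.82. Endothelial cells are one known site of VLDLR. By FDR 6 of the 7 measured endothelial markers were higher in backfat, beside 28.0% of all genes. Their sum was between 1259 and 2018 CPM in backfat against 245 to 456 CPM in liver. Liver 67 had the highest endothelial sum among the livers, and no marker of that list was at 0 in every library of a tissue. The part of endothelial RNA in the VLDLR values was not tested.

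SCARB1 (ENSSSCG00000009759) encodes the scavenger receptor that takes up cholesteryl esters from HDL without taking up the particle, and that can also let free cholesterol out of cells. It lies on chromosome 14, between 28301421 and 28393568 on the plus strand, with 13 exons. Backfat of boars 65, 67, 69, 71 and 72 gave 202, 139, 173, 173 and 140 CPM, and liver gave 110, 55.6, 105, 100 and 110 CPM. The ranges did not overlap, and 4 of the livers lay close together while liver 67 was far below them. The means were 165 ± 26.6 and 96.1 ± 22.9 CPM (SD, n = 5), a log2 fold change of 0.78 (SE 0.21, 95% CI 0.32 to 1.24, FDR 0.00722), and backfat was higher in 5 of 5 boars. This passed the FDR and was under the fold threshold of a DEG. Without liver 67 the log2 fold change was 0.60 and still passed, at an FDR of 0.00596.

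ABCA1 (ENSSSCG00000005423) encodes the transporter that loads free cholesterol and phospholipid onto lipid-poor apolipoprotein A-I, the first step of HDL formation. It lies on chromosome 1, between 246144277 and 246278492 on the minus strand, with 51 exons. It was at 22.0, 70.6, 11.9, 20.4 and 18.8 CPM in backfat and at 51.7, 19.5, 68.8, 22.4 and 39.6 CPM in liver of boars 65, 67, 69, 71 and 72. Backfat 67 was more than 3 times as high as any other backfat library, whereas liver 67 was the lowest liver, so boar 67 ran against the other 4 boars, in which liver was higher. The means of 28.7 ± 23.7 and 40.4 ± 20.6 CPM (SD, n = 5) overlapped, and the log2 fold change of -0.49 (SE 0.48, 95% CI -1.53 to 0.55, FDR 0.404) did not pass. The interval leaves room for a difference of more than 2-fold in favour of liver. Without backfat 67 the log2 fold change was -1.14 at an FDR of 0.0225, so whether ABCA1 passed depended on that library.

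ABCG1 (ENSSSCG00000027745) encodes a half-transporter that moves cholesterol to mature HDL particles and is known from macrophages and adipocytes. It lies on chromosome 13, between 205561897 and 205628428 on the plus strand, with 15 exons. It was at 6.02, 11, 7.15, 4.79 and 5.59 CPM in backfat and at 6.73, 13.3, 5.69, 9.67 and 10.9 CPM in liver of the same boars in order. Boar 67 was the highest in both tissues, and the ranges overlapped. The means were 6.91 ± 2.43 and 9.26 ± 3.10 CPM (SD, n = 5), with a log2 fold change of -0.42 (SE 0.29, 95% CI -1.05 to 0.21, FDR 0.236). Liver was higher in 4 of 5 boars.

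Macrophages are known to use both efflux transporters, and their markers were not even between the tissues. The 10 macrophage markers summed to between 530 and 1049 CPM in backfat and to between 1184 and 1832 CPM in liver. By FDR 8 of the 10 were higher in liver, beside 27.0% of all genes. Backfat 67, which had the highest ABCA1 and ABCG1 of its tissue, also had the highest macrophage sum in backfat, while liver 67, with the highest ABCG1 and the lowest ABCA1 of its tissue, had the lowest in liver. No marker of the list was at 0 in every library of a tissue. The part of macrophage RNA in the values of both transporters was not tested.

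NPC1L1 (ENSSSCG00000016746) encodes the sterol importer of the gut brush border and, in several species, of the bile canaliculus, and it is the target of ezetimibe. It lies on chromosome 18, between 50726854 and 50757676 on the plus strand, with 19 exons. In liver it was at 7.58, 22.8, 10.6, 8.34 and 16.1 CPM in boars 65, 67, 69, 71 and 72, from 264 to 846 counts per library. In backfat it had 1, 0, 0, 0 and 3 counts in the same order, so 3 libraries were at 0 and the other 2 were at 0.0113 and 0.0515 CPM. The liver mean was 13.1 ± 6.39 CPM (SD, n = 5). Over all libraries 2506 liver counts stood against 4 backfat counts, a ratio of normalised rates of 1064 with an exact 95% interval of 415 to 3909 that covers counting error only. The gene was a DEG in liver with an FDR of 1.44e-07, and its fitted log2 fold change of -9.80 (SE 0.67) depends on the prior count because backfat is near 0. Without backfat 72, which held 3 of the 4 backfat counts, the fitted value was -11.06. Backfat 69, with the highest hepatocyte sum in backfat, had no NPC1L1 count. The part of hepatocyte RNA in the 4 backfat counts was not tested.

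SOAT1 (ENSSSCG00000021464) encodes the acyltransferase of the endoplasmic reticulum that esterifies cholesterol in most cell types. It lies on chromosome 9, between 121045211 and 121112393 on the plus strand, with 16 exons. Backfat of boars 65, 67, 69, 71 and 72 gave 17.4, 12.1, 15.3, 22.1 and 20.6 CPM, and liver gave 16.7, 8.07, 20.0, 10.2 and 15.1 CPM. The ranges overlapped, and boar 67 was the lowest in both tissues. The means were 17.5 ± 4.03 and 14.0 ± 4.84 CPM (SD, n = 5), with a log2 fold change of 0.32 (SE 0.26, 95% CI -0.24 to 0.88, FDR 0.31), and backfat was higher in 4 of 5 boars.

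The 3 genes that did not pass depended on the scaling. With library size alone and no TMM factors, the median over every gene tested moved by 0.71 towards backfat, and ABCA1 was at 0.19 (FDR 0.762) and ABCG1 at 0.35 (FDR 0.305), both turned in direction. SOAT1 was then at 0.98 and passed (FDR 0.0126). The values of ABCA1 and ABCG1 were below the shift of all genes and that of SOAT1 was above it. VLDLR, SCARB1 and NPC1L1 kept their direction and their call under this scaling.

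**Figure D2:**
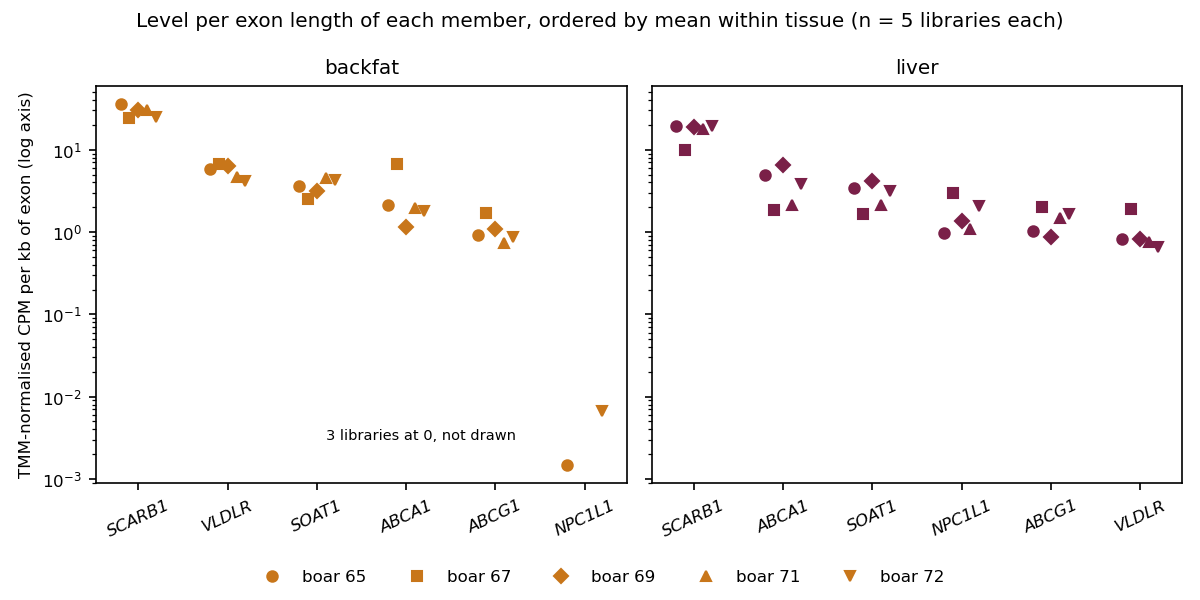
Level of each of the 6 genes per exon length in TMM-normalised CPM per kb of exon (y axis, log scale), ordered by the mean within backfat (left) and liver (right), with a symbol for each boar. SCARB1 is highest in every library of both tissues, and NPC1L1 goes from last in backfat, where 3 libraries at 0 are not drawn, to the middle of the order in liver.

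Levels were compared between genes per exon length, in TMM-normalised CPM per kb of exon. In backfat the order was SCARB1 (29.4 ± 4.73), VLDLR (5.53 ± 1.05), SOAT1 (3.64 ± 0.838), ABCA1 (2.76 ± 2.28), ABCG1 (1.06 ± 0.373) and NPC1L1 (0.00163 ± 0.00289; SD, n = 5). SCARB1 stood clear of its neighbour and NPC1L1 stood clear of ABCG1, while the libraries of all other neighbours in the order overlapped. In liver the order was SCARB1 (17.1 ± 4.08), ABCA1 (3.88 ± 1.98), SOAT1 (2.91 ± 1.01), NPC1L1 (1.70 ± 0.828), ABCG1 (1.42 ± 0.476) and VLDLR (0.994 ± 0.526; SD, n = 5). SCARB1 was again separate, and every other pair of neighbours overlapped. VLDLR moved from the second place in backfat to the last in liver.

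SCARB1 made up 58.3% to 74.2% of the summed level of the 6 genes in backfat libraries and 48.5% to 70.1% in liver libraries. The VLDLR share ranged from 10.9% to 15.8% in backfat and, in liver, from 2.12% to 9.46%, with the highest liver value in boar 67. The spread among boars was unequal across genes. Within backfat the coefficient of variation was 16.1% for SCARB1 and 19.0% for VLDLR against 82.5% for ABCA1, whose highest library was 5.95 times the lowest.

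Ratios of 2 genes within a library do not depend on the scaling between libraries, and 4 of 6 pairs could be computed. LRP1 to LRPAP1, its chaperone, and SCARB1 to CD36, another class B scavenger receptor, each held a gene without an identifier. Each ratio is the log2 of the counts per exon length of the first gene over the second with 0.5 counts added to each. The difference between tissue means was tested by a two-sided exact permutation test over all 252 arrangements of the 10 libraries, which cannot give a p below 0.00794, with adjustment over the 4 pairs. Boars were not paired in that test. The exact sign-flip test, which pairs tissues by boar, cannot go below 0.0625 with 5 boars, so no pair could pass it.

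**Figure D3:**
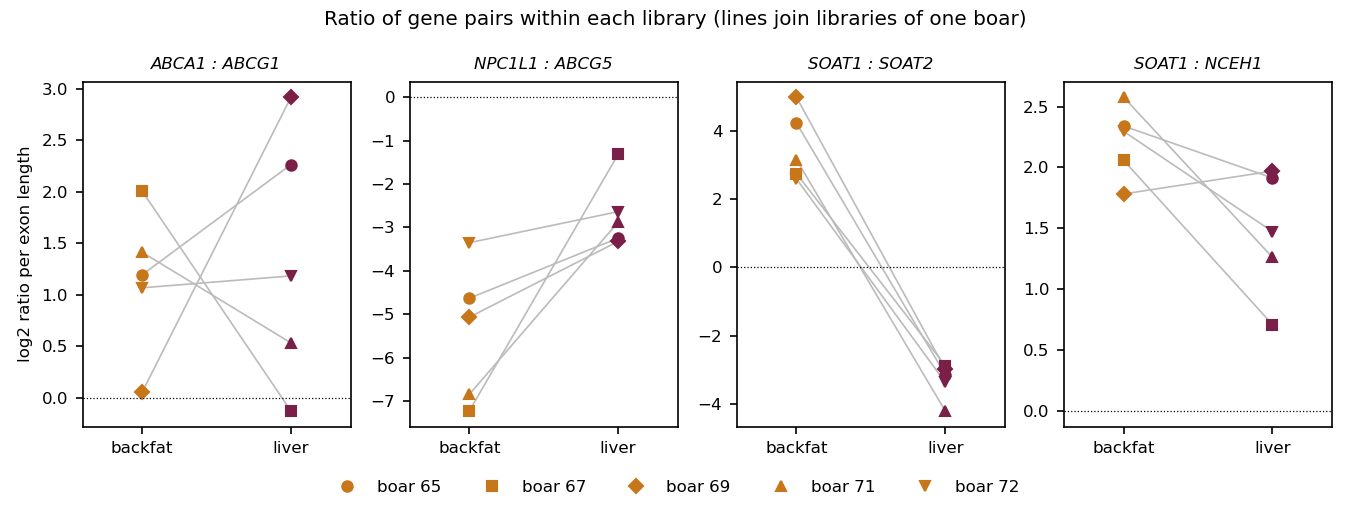
Log2 ratio per exon length of 4 gene pairs (y axis, one scale per panel) in backfat and liver of each boar (symbols, joined by lines), with a dotted line at equal levels. SOAT1 to SOAT2 falls from backfat to liver in every boar, and ABCA1 to ABCG1 falls in 2 boars and is higher in liver in 3.

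SOAT1 was set against SOAT2, the isoenzyme known from hepatocytes and enterocytes that esterifies cholesterol for lipoprotein assembly. SOAT2 was at 0.462, 0.900, 0.235, 1.24 and 1.72 CPM in backfat and at 74.6, 30.0, 80.1, 95.4 and 79.1 CPM in liver, without overlap (log2 fold change -6.31, SE 0.53, FDR 8.03e-07). The log2 ratio of SOAT1 to SOAT2 ranged from 2.59 to 4.99 in backfat, and from -4.21 to -2.88 in liver. The means were 3.54 ± 1.03 and -3.32 ± 0.53 (SD, n = 5), a difference of 6.86 (exact permutation p = 0.00794, adjusted p = 0.0159) seen in 5 of 5 boars. SOAT1 was 11.7-fold over SOAT2 in backfat and SOAT2 was 9.99-fold over SOAT1 in liver, so the larger of the pair differed between the tissues in every boar. SOAT2 in backfat rested on 14 to 100 counts per library.

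SOAT1 was also set against NCEH1, a neutral cholesteryl ester hydrolase that works in the opposite direction. The log2 ratio was 2.21 ± 0.30 in backfat and 1.47 ± 0.52 in liver (SD, n = 5), a difference of 0.75 (exact permutation p = 0.0317, adjusted p = 0.0423). Backfat was higher in 4 of 5 boars and the ranges overlapped, from 1.78 to 2.58 and from 0.71 to 1.97. The adjusted p was between 0.0212 and 0.0847 when each library was left out in turn and passed only without backfat 69, liver 65 or liver 69 among these.

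NPC1L1 was set against ABCG5, a subunit of the transporter that sends sterols out across the same canalicular and brush border membranes. The log2 ratio was -5.43 ± 1.61 in backfat and -2.68 ± 0.81 in liver (SD, n = 5), a difference of -2.75 (exact permutation p = 0.00794, adjusted p = 0.0159) in 5 of 5 boars. By the liver mean ABCG5 was thus 6.42-fold over NPC1L1 per length. The ratio was -1.32 in liver 67 and from -3.32 to -2.64 in the other livers. The backfat ratio rests on 0 to 3 NPC1L1 counts and on the 0.5 counts added, and on 11 to 51 ABCG5 counts. With 1 count added in place of 0.5 the difference was -2.06 (adjusted p = 0.0423 by the exact permutation test). ABCG5 overlaps DYNC2LI1 on the other strand, and reads of such neighbours cannot be told apart without strand.

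ABCA1 to ABCG1 gave a log2 ratio of 1.15 ± 0.71 in backfat and 1.35 ± 1.24 in liver (SD, n = 5), a difference of -0.21 (exact permutation p = 0.738, adjusted p = 0.738). The ratio was from 0.05 to 2.01 in backfat and from -0.13 to 2.92 in liver. Boar 67 had the highest ratio of its tissue in backfat and the lowest in liver, and the direction turned when backfat 69, liver 65 or liver 69 was left out.

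**Figure D4:**
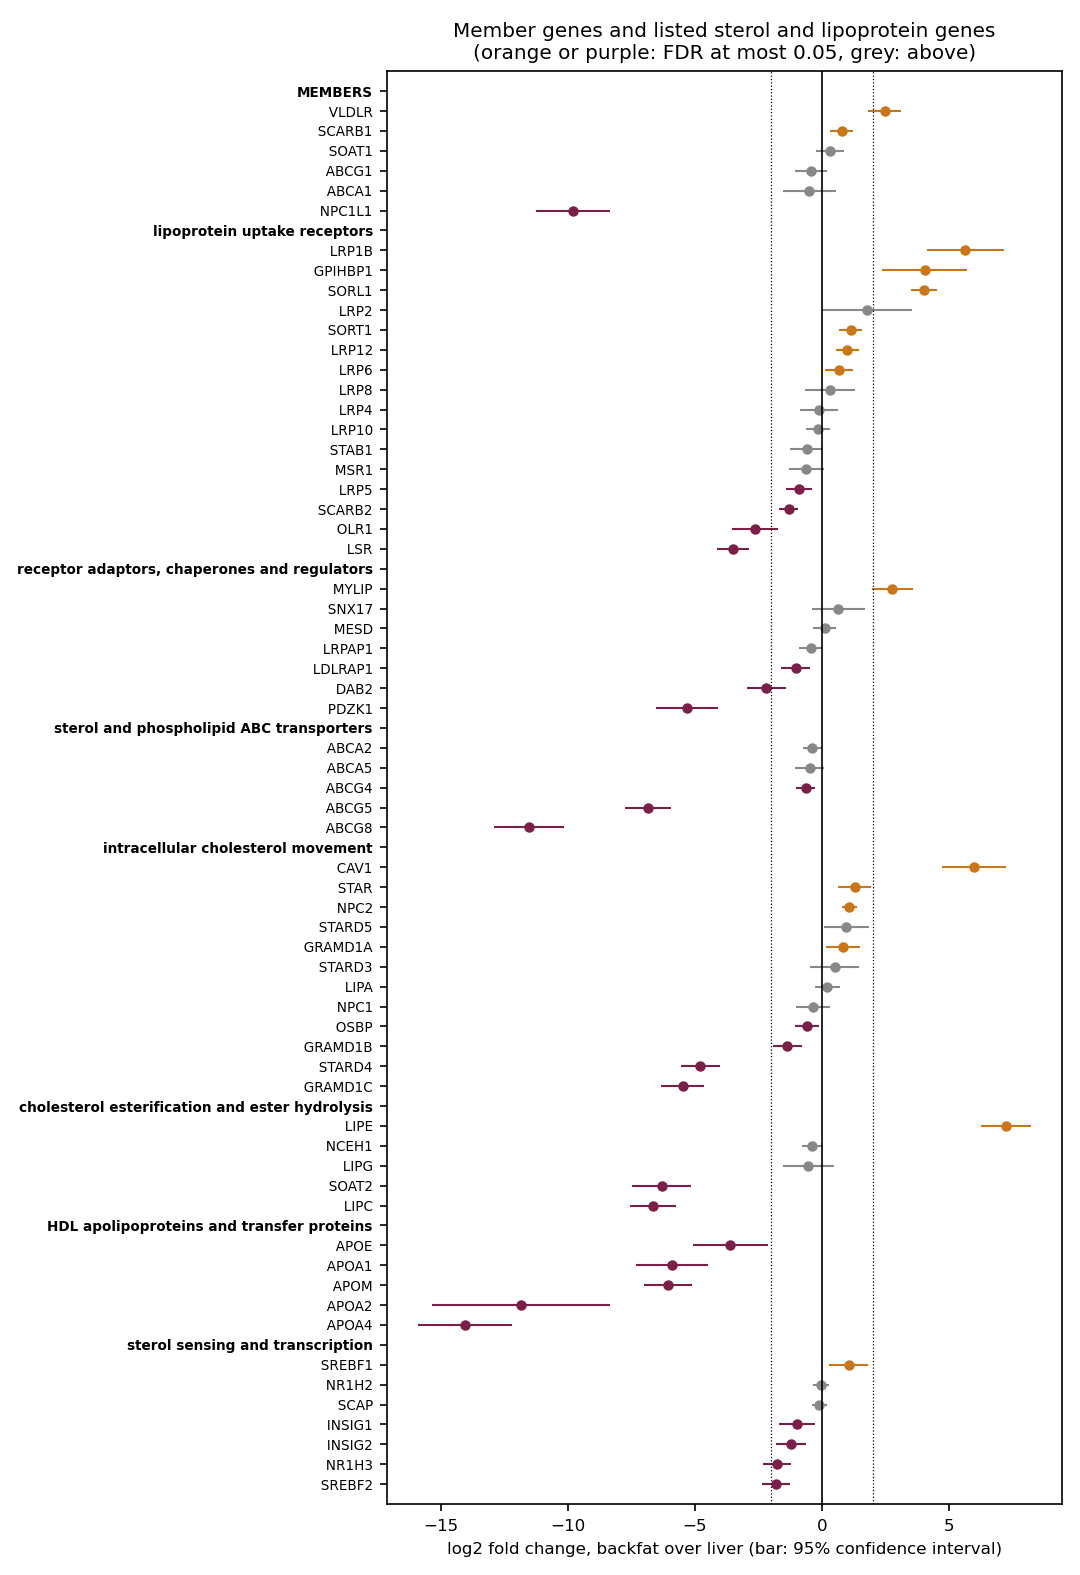
Log2 fold change of backfat over liver (x axis) with its 95% confidence interval for the 6 genes and for 57 tested genes of 7 related lists (y axis), with dotted lines at the fold threshold of -2 and 2. Points in orange or purple passed the FDR towards backfat or liver and grey points did not, and the HDL apolipoproteins lie wholly to the liver side.

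Other genes of the pathway were taken from 7 lists with 67 symbols, of which 59 had an identifier and 57 were tested. Of the 57, 13 were higher in backfat and 25 were higher in liver by FDR, and 21 were DEGs, 6 in backfat and 15 in liver. These are 66.7% and 36.8% of the genes tested, beside 55.0% and 22.3% of all genes. With library size alone the balance of the counts by FDR turned, with 22 of the 57 higher in backfat and 18 higher in liver. Under that scaling 50.5% and 14.3% of all genes were higher in backfat and liver. Under both scalings the share of the 57 was below that of all genes towards backfat and above it towards liver. The median log2 fold change of the 57 was -0.48, beside 0.00 for all genes. ABCA7, with 0 to 3 counts per backfat library and 0 in every liver library, and LCAT, listed at 0 in all 10 libraries, were not tested. Whether reads of LCAT could be counted on its gene model was not checked, so its 0 is not read as absence of RNA.

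By FDR, 28.0% of all genes were higher in backfat and 27.0% were higher in liver, and the counts of each list stand beside these shares. The list of lipoprotein uptake receptors was broad and also held GPIHBP1, LRP5, LRP6 and SCARB2. Among its 16 tested genes, 6 were higher in backfat and 4 were higher in liver. In all 62.5% of these genes passed, beside 55.0% of all genes. GPIHBP1, which anchors lipoprotein lipase on the capillary wall, was 181 ± 40.6 CPM in backfat and 10.9 ± 16.4 in liver (SD, n = 5; log2 fold change 4.06, SE 0.77, FDR 0.000698), and without liver 67 the value was 5.64. SORL1, a sorting receptor that also binds lipoproteins, was also higher in backfat, at 60.4 ± 17.8 against 3.70 ± 0.726 CPM (log2 fold change 4.03, SE 0.24, FDR 4.2e-08). LSR, the lipolysis-stimulated receptor, was higher in liver, at 36.2 ± 8.76 against 3.20 ± 1.13 CPM (log2 fold change -3.50, SE 0.28, FDR 5.25e-07). LSR was thus on the side opposite to VLDLR.

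Of 7 receptor adaptors, chaperones and regulators, 1 was higher in backfat and 3 were higher in liver, so 57.1% passed beside 55.0% of all genes. MYLIP, the ubiquitin ligase that marks VLDLR for degradation, was the backfat gene, at a log2 fold change of 2.79 (SE 0.37, FDR 4.16e-05). PDZK1, the adaptor that holds SCARB1 at the hepatocyte surface, was higher in liver with -5.32 (SE 0.56, FDR 5.32e-06), at 43.3 ± 30.7 CPM against 1.09 ± 0.469 in backfat (SD, n = 5), opposite in direction to SCARB1. DAB2, a clathrin adaptor of endocytic receptors, was higher in liver with -2.18 (SE 0.35, FDR 0.000182), and it was under the fold threshold of a DEG at -1.80 without liver 71 and at -1.40 with library size alone. LRPAP1, the chaperone of LRP1 and its relatives, was at 155 ± 18.4 and 209 ± 61.0 CPM and did not pass (log2 fold change -0.43, 95% CI -0.90 to 0.04, FDR 0.112).

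Of 5 tested ABC transporters beside ABCA1 and ABCG1, none was higher in backfat and 3 were higher in liver. Thus 60.0% of them passed, near the 55.0% of all genes. ABCG8, the partner of ABCG5, had 17776 liver counts against 9 backfat counts, a ratio of normalised rates of 3355 (exact 95% interval 1767 to 7339, counting error only), and its fitted log2 fold change was -11.54, or -13.83 without backfat 69. ABCG5 was higher in liver with -6.85 (SE 0.41, FDR 5.27e-08). ABCG4, a close relative of ABCG1, was higher in liver with -0.63 (SE 0.17, FDR 0.00859), but with library size alone it was at 0.10 and did not pass. ABCG5, ABCG8 and NPC1L1 were each below 1 CPM in every backfat library.

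Of 12 tested genes of intracellular cholesterol movement, 4 were higher in backfat and 4 were higher in liver, or 66.7% beside 55.0% of all genes. CAV1, the caveolae protein that binds cholesterol at the adipocyte surface, was on the backfat side at a log2 fold change of 6.0 (SE 0.58, FDR 2.67e-06). GRAMD1C, a sterol transfer protein at membrane contacts, was higher in liver with -5.49 (SE 0.38, FDR 1.74e-07), and STARD4, a soluble sterol carrier, with -4.78 (SE 0.35, FDR 2.51e-07). Of 5 tested genes of esterification and ester hydrolysis, 1 was higher in backfat and 2 were higher in liver, or 60.0% beside 55.0%. LIPE, the hormone-sensitive lipase that also cleaves cholesteryl esters, was at 7.27 (SE 0.45, FDR 6.71e-08), and LIPC, the hepatic lipase that acts on HDL and remnants, was at -6.65 (SE 0.42, FDR 7.54e-08).

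All of the 5 tested HDL apolipoproteins were DEGs in liver, beside 11.2% of all genes. APOA2 was at -11.87 (SE 1.61, FDR 4.79e-05) and at -15.37 without backfat 69. APOM, the carrier of sphingosine-1-phosphate on HDL, was at -6.06 (SE 0.43, FDR 1.88e-07). APOA4 had 17075 liver counts and 1 backfat count, a ratio of normalised rates of 29007 (exact 95% interval 5205 to 1145773, counting error only). That backfat count was in backfat 69. Of 7 genes of sterol sensing and transcription, 1 was higher in backfat and 4 were higher in liver, or 71.4% beside 55.0% of all genes. None was a DEG, beside 22.3% of all genes. SREBF2, the main transcription factor of sterol synthesis, was higher in liver with -1.79 (SE 0.26, FDR 7.37e-05). NR1H3, the oxysterol receptor LXR alpha that drives ABCA1, ABCG1 and MYLIP, was higher in liver with -1.76 (SE 0.26, FDR 8.33e-05). INSIG2, which retains the sterol sensor complex in the endoplasmic reticulum, was higher in liver with -1.21 (SE 0.28, FDR 0.00253). With library size alone INSIG2 was at -0.53 and did not pass.

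Genes with the profile most like each of the 6 were taken over the 10 libraries, by the root mean square difference of log2 profiles centred on their own means, among 11598 named genes. For VLDLR these were PRKCH (0.172) and DOCK9 (0.199), and for SCARB1 they were THRA (0.136) and DAG1 (0.167). For ABCG1 they were B9D1 (0.208) and PNRC1 (0.233), and for SOAT1 they were COQ5 (0.149) and ELOVL1 (0.159). ABCA1 had no gene as close, with GKAP1 at 0.350 and SLC4A4 at 0.480. For NPC1L1 the closest were GSTT4 (0.667) and CDHR5 (0.682), with counts near 0 in backfat behind the distances.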

How the data were processed

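Total RNA of backfat and liver was sequenced as poly(A) libraries. Per the paper and the labels, the authors used FastQC and Trimmomatic on the reads, HISAT2 for alignment to Sscrofa11.1, and featureCounts 2.0.1 for gene counts. The deposited values are raw counts per gene with gene length, and the read strand used in counting is not given in the sources used here. Methylation call tables of the 10 WGBS libraries carry no gene positions and were not used.

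Counts were filtered with filterByExpr, scaled by TMM and tested with edgeR 4.0.16 (quasi-likelihood, tissue as the only term, R 4.3.3), with Benjamini-Hochberg adjustment over 16275 genes. The study used DESeq2, which was run here as an alternative (1.42.0), like limma-voom (3.58.1). Intervals of log2 fold changes are 95%, were built from the SE derived from the F statistic and cover the spread between 5 libraries per tissue. Intervals of ratios of normalised rates cover counting error only. No pair of libraries agreed within counting noise. The replicate numbers of the labels were not matched to boars, so pairing came from the boar numbers of the columns. Deviations of the libraries of one boar correlated at 0.228, 0.106, 0.0457, 0.146 and 0.0847, and in 4 of 5 boars above those of other boars.

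Symbols were taken from a table of Ensembl identifiers, while gene models and promoter windows are those of RefSeq on Sscrofa11.1. The named genes were all members of the set, the partners of the listed pairs, and up to 3 genes per list with the largest absolute log2 fold change that passed the FDR at a mean of at least 1 CPM. The nearest 2 profiles per gene were added, with 0.01 CPM added before logs. ABCA7, LCAT and libraries singled out in the text were named after their values were seen. The members and lists were chosen with earlier results of these data known. Alternatives were other scalings, tests and filters, removal of mitochondrial genes, the boar as a block, another pseudocount, and each library left out in turn. Leaving out backfat 69 and liver 67 together was chosen after seeing the data. A few genes of the lists and a pair that holds one of them are not reported here and were left out of the counts and of the adjustment over pairs.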

Additional observations from a re-analysis of the deposited data

Results flagged for a closer look

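Dixon's gap test at the 95% level flagged a library far from the other 4 of its tissue in 4 of 28 groups. Each group held 5 libraries. The groups share libraries and genes, and some hold few counts, so no rate by chance is set beside this number. Liver 67 was far above the other livers in VLDLR, at 17.3 CPM, and far below them in SCARB1, at 55.6 CPM. Backfat 67 was far above the other backfat libraries in ABCA1, at 70.6 CPM. Backfat 72 was set apart in NPC1L1, at 0.0515 CPM, which is 3 counts.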

How the results depend on the processing

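Of the alternatives computed for the 6 genes, 109 of 113 kept direction and side of the FDR threshold, as did 35 of 48 for the pairs and 429 of 433 for the other named genes. With library size alone ABCA1 (0.19), ABCG1 (0.35), ABCG4 (0.10), LRPAP1 (0.33) and NCEH1 (0.33) turned in direction, SOAT1 passed (0.98), INSIG2 (-0.53) no longer passed, and pathway genes higher in backfat were 22 in place of 13, against 18 in place of 25 higher in liver. DAB2 fell short of the fold threshold there (-1.40) and without liver 71 (-1.80). These came with the shift of all genes by 0.71. A filter of at least 10 counts in every library left NPC1L1 untested, hence 0 genes of the set higher in liver by FDR and 0 DEGs in liver. With each library left out in turn, ABCA1 was between -1.14 and -0.22, the number of genes of the set higher in liver between 1 and 2, SOAT1 to NCEH1 between 0.56 and 0.87, and ABCA1 to ABCG1 between -0.58 and 0.18, turned at 0.07, 0.02 and 0.18 without backfat 69, liver 65 and liver 69. Causes were not tested. With the boar as a replicate block no call of the 6 genes changed, with values of 2.58 for VLDLR, 0.81 for SCARB1, -0.68 for ABCA1, -0.42 for ABCG1, -9.79 for NPC1L1 and 0.36 for SOAT1. The sign-flip test that pairs tissues by boar gave the same differences of -2.75 and 6.86 at an adjusted p of 0.125 and of 0.75 at 0.167, in a design that cannot pass. Without backfat 69 and liver 67, chosen after seeing the data, VLDLR was at 2.81, SCARB1 at 0.62, ABCA1 at -0.47, ABCG1 at -0.27, NPC1L1 at -9.26 and SOAT1 at 0.22, with the same calls. The value of NPC1L1 in backfat rests on 4 counts in all.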
